A study of Sus scrofa with 4 samples.

Results

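The mitochondrial cell death machinery of porcine fetal fibroblasts was followed through 37 listed genes: the BCL2 family, caspases, the apoptosome and the proteins released from or acting beside mitochondria. Members were the rows of the deposited count files whose symbol is in the list. Of the 37, 33 had such a row and 31 were tested, out of 35670 genes in the files and 14617 tested. BCL2A1 and HRK had 0 reads in every library, and BAK1, PMAIP1, BIK and CASP4 had no row with their symbol. Each tested member had at least 33 reads in every library, so that no member entered the test through a single group.

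RNA came from fibroblasts of fetal pig skin, the donor cells of a cloning study, and serum starvation is labelled for every sample. There are 2 libraries of the genotype BRG1-overexpressed and 2 control libraries of the genotype WT. BRG1, encoded by SMARCA4, is the motor of BAF (SWI/SNF) chromatin remodellers, and the series asks what more of it does to donor cells. All 4 titles hold the term pTK-642, whose meaning is not given in the labels, and neither are the BRG1 construct and the clonality of the cells. No label says that the 2 libraries of a group came from separate cultures, so the spread behind each p-value may be technical only.

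In this form of apoptosis, BH3-only proteins sense stress and bind the guardians BCL2, BCL-XL (BCL2L1), BCL-W (BCL2L2) and MCL1, or act directly on the effectors BAX and BAK1. The effectors open the outer mitochondrial membrane, and cytochrome c leaks out and joins APAF1 to form the apoptosome, on which caspase-9 is activated. Caspase-9 then cleaves the executioner caspases, which XIAP blocks until DIABLO and HTRA2 remove it. Death receptors feed in through caspase-8, which CFLAR restrains, and which cleaves BID to link both routes.

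The libraries held between 34486400 and 38126860 reads on genes. SMARCA4 did not pass the test as changed, at 161 ± 2.82 CPM in the libraries labelled BRG1 against 167 ± 17.1 CPM in controls (CPM, counts scaled to library size and TMM factor; SD, n = 2 each), with a log2 fold change of -0.04 (95% interval -0.27 to 0.18; adjusted p = 0.765). The counts therefore do not check the label through the pig gene, and each direction below compares BRG1-labelled with control libraries. Reads counted to no feature were 10.3% and 10.5% of the total in the libraries labelled BRG1, against 6.11% and 7.34% in controls. The controls differed from each other more (chi-square per degree of freedom 38.9) than the libraries labelled BRG1 did (5.34). Of 11 fibroblast markers 10 were in the files, all were tested, and they summed to between 35967 and 36027 CPM in the libraries labelled BRG1 and between 25590 and 28759 CPM in controls. COL1A1, COL1A2, PDGFRA, DCN, LUM and FAP were higher in both libraries labelled BRG1 than in either control, PDGFRB overlapped, and COL3A1, VIM and S100A4 were lower (VIM at 5686 and 5628 CPM in the libraries labelled BRG1, against 6953 and 6726 CPM in controls).

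Of the markers of other cells, KRT5, PTPRC, TEK, MYOD1 and ADIPOQ were at 0 reads in all 4 libraries, but some others were not low. The 9 immune markers summed to 46.2 to 47.5 CPM in the libraries labelled BRG1 and 85.1 to 87.8 CPM in controls, nearly all of it CD14, while LYZ was also at 0. The 7 muscle and pericyte markers summed to 202 to 216 CPM in the libraries labelled BRG1 and 45.1 to 56.2 CPM in controls. ACTA2 had 135 and 149 CPM in the libraries labelled BRG1, against 7.31 and 5.82 CPM in controls. CSPG4 had 65.6 and 64.9 CPM in the libraries labelled BRG1, against 36.3 and 48.4 CPM in controls. Of the other lists, keratinocyte markers summed to at most 3.74 CPM in any library and adipocyte markers to at most 1.09 CPM. Melanocyte and Schwann markers summed to 16.6 to 17.3 CPM in the libraries labelled BRG1 and 8.74 to 9.16 CPM in controls, while endothelial markers summed to 20.8 to 21.5 CPM in the libraries labelled BRG1 and 14.0 to 19.1 CPM in controls. The part of these differences, and of that in reads counted to no feature, in the results on apoptosis genes was not tested. In bulk RNA, fewer cells of a kind and less RNA per cell cannot be told apart.

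Of the 31 tested members, 16 passed an adjusted p of 0.05 (edgeR's quasi-likelihood test with Benjamini-Hochberg adjustment over all 14617 genes), with 5 rises and 11 falls in the libraries labelled BRG1. That is 51.6% of the members, against 44.6% of all genes tested. The 5 rises make 16.1% of the members against 21.0% of all genes, and the 11 falls 35.5% against 23.6%. A share of called genes this close to that of all genes is no result about the members. Their median log2 fold change was -0.21, against 0.02 over all genes tested. A change of at least 1.5-fold past the threshold was found in 7 members, or 22.6%, against 28.8% of all genes. The groups did not overlap in 26 members, and in 73.2% of all genes. Both libraries labelled BRG1 lay above both controls in 7 members (22.6%, against 37.5% of all genes) and below both in 19 (61.3%, against 35.7%). With scaling by library size alone 7 rose and 4 fell, while the median of all genes moved up by 0.23 on the log2 scale. The median of the members stayed 0.23 below that of all genes under either scaling. The falls numbered 18 without control 2, 5 without library 1 labelled BRG1 and 5 without library 2.

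**Figure D1:**
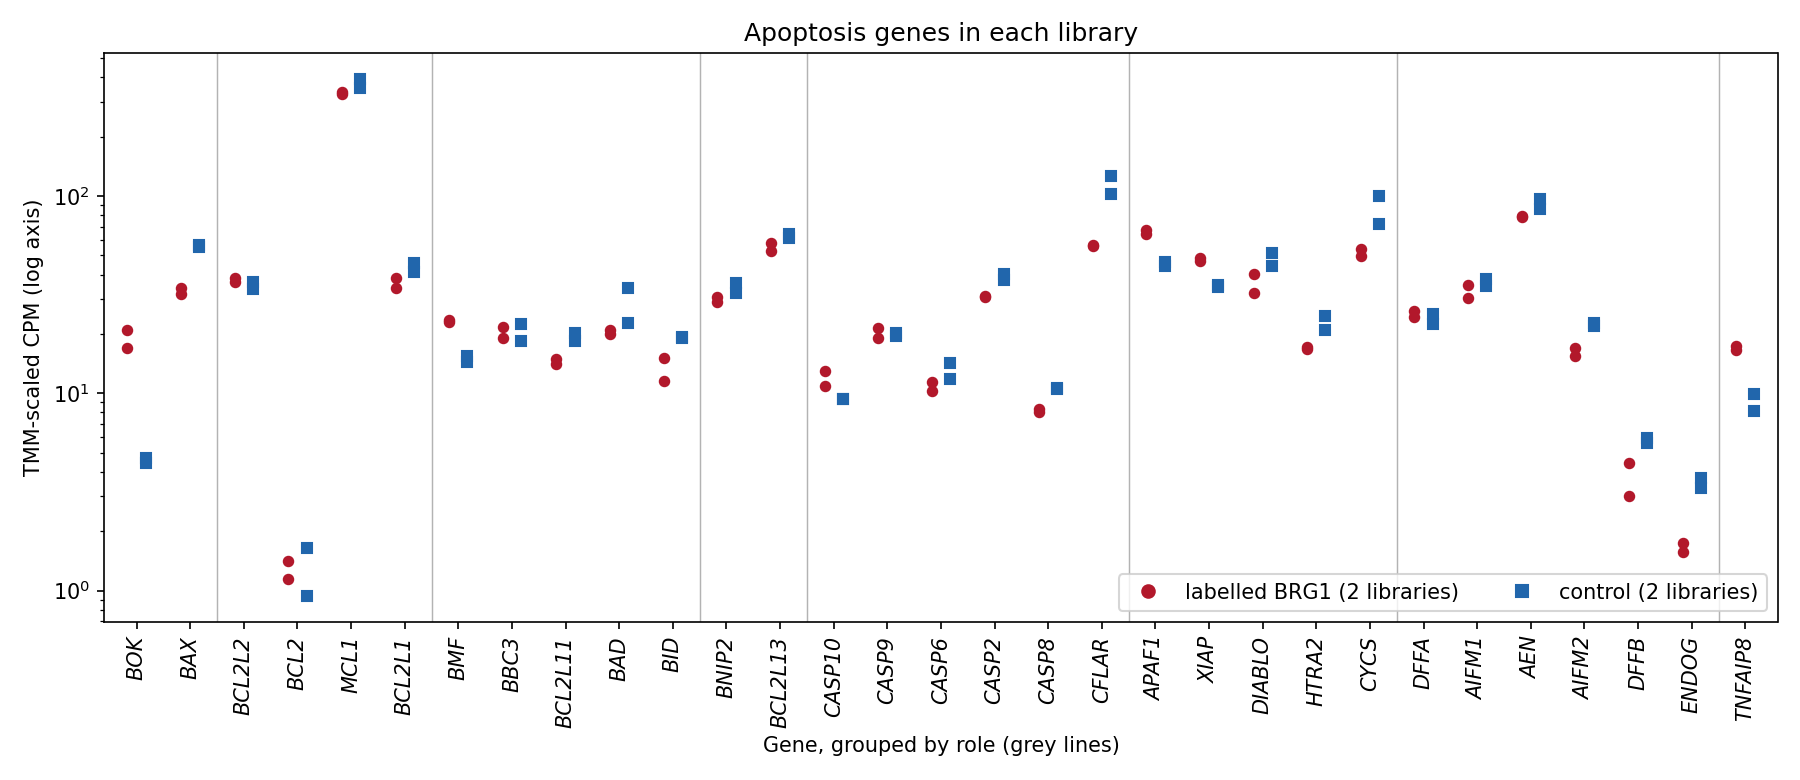
Level of each of the 31 tested genes in TMM-scaled CPM (log axis), with the 2 libraries labelled BRG1 as red circles and the 2 controls as blue squares, grouped by role between grey lines. BOK stands at 17.03 and 20.97 CPM in the libraries labelled BRG1 and at 4.43 and 4.70 CPM in controls, the widest separation shown, while BCL2 overlaps. CPM is not divided by gene length, so heights are to be compared within a gene only.

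The 2 pore-forming effectors tested as members moved in opposite directions, and BAK1, described below, fell. BOK, an effector of the endoplasmic reticulum and mitochondria that is less bound by the guardians, had 17.03 and 20.97 CPM in the libraries labelled BRG1, against 4.43 and 4.70 CPM in controls. The groups did not overlap, and the rise was 4.16-fold (log2 fold change 2.06 ± 0.17, SE; 95% interval 1.68 to 2.43; adjusted p = 2.86e-07). BOK lies on chromosome 15 of Sscrofa11.1 at 140171134 to 140184126, where RefSeq also places the uncharacterised RNA LOC102164681, and reads of overlapping genes may not be resolved. BAX, the effector that moves from the cytosol to mitochondria, had 31.9 and 34.1 CPM in the libraries labelled BRG1, against 56.2 and 55.5 CPM in controls. Both libraries labelled BRG1 were low, a fall to 0.591 of the control level (log2 fold change -0.76 ± 0.11; 95% interval -0.99 to -0.53; adjusted p = 5.51e-05). BAX occupies 54222341 to 54228150 of chromosome 6.

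BAK1 and PMAIP1 carry no symbol in the files, but the gene name table pairs them with the identifiers ENSSSCG00000001516 and ENSSSCG00000026454. They were kept out of the member counts, and with them 5 genes rose and 13 fell, where 21.0% of all genes tested rose and 23.6% fell. This count was added after seeing the data. BAK1, the effector resident on mitochondria, had 20.7 and 21.9 CPM in the libraries labelled BRG1, against 60.3 and 49.9 CPM in controls. PMAIP1, which encodes the BH3-only protein NOXA that neutralises MCL1, had 28.5 and 27.5 CPM in the libraries labelled BRG1, against 64.7 and 52.8 CPM in controls. In both genes the groups were far apart, and the falls reached -1.37 ± 0.13 for BAK1 (adjusted p = 6.54e-07) and -1.07 ± 0.12 for PMAIP1 (adjusted p = 6.13e-06) on the log2 scale.

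No guardian passed the test: of the 4 tested anti-apoptotic BCL2 genes 0 were called by edgeR, DESeq2 or limma-voom, and 1, BCL2L1, had an unadjusted p under 0.05. Of all genes tested edgeR called 44.6%, and a count over 4 genes is no result about the guardians as a group. BCL2L1, which encodes BCL-XL, had 34.0 and 38.3 CPM in the libraries labelled BRG1, against 45.9 and 41.1 CPM in controls. Its groups did not overlap, but the change of -0.27 ± 0.12 on the log2 scale missed the threshold (95% interval -0.52 to -0.01; adjusted p = 0.0823). MCL1, the short-lived guardian, had 337 and 329 CPM in the libraries labelled BRG1, against 393 and 351 CPM in controls. Its interval reached from 0.766-fold to 1.05-fold (adjusted p = 0.236). Without control 2 BCL2L1 and MCL1 both passed as lower, at -0.36 and -0.25, and MCL1 was at 0.067 with library size alone. BCL2L1 also passed as lower with the trend with gene span removed, at -0.34 (adjusted p = 0.0286).

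BCL2 itself was scarce, with 45 and 53 reads in the libraries labelled BRG1, against 33 and 53 reads in controls. The highest and the lowest library were thus not separated by group, and the 95% interval ran from 0.484-fold to 2.03-fold, so changes within that range were not resolved by these 4 libraries. BCL2L2, for BCL-W, had 37.4 ± 1.09 CPM in the libraries labelled BRG1 and 35.1 ± 1.98 CPM in controls (SD, n = 2 each; log2 fold change 0.09; 95% interval -0.16 to 0.34; adjusted p = 0.555), and passed as higher with library size alone, at 0.32 (adjusted p = 0.0362). The BCL2-related genes BCL2L13, a mitochondrial protein, and BNIP2 also missed the threshold, at -0.19 each on the log2 scale. For these 2 genes edgeR, DESeq2 and limma-voom called 0, and 0 had an unadjusted p under 0.05, though both passed as lower without control 2 and with the span trend removed.

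**Figure D2:**
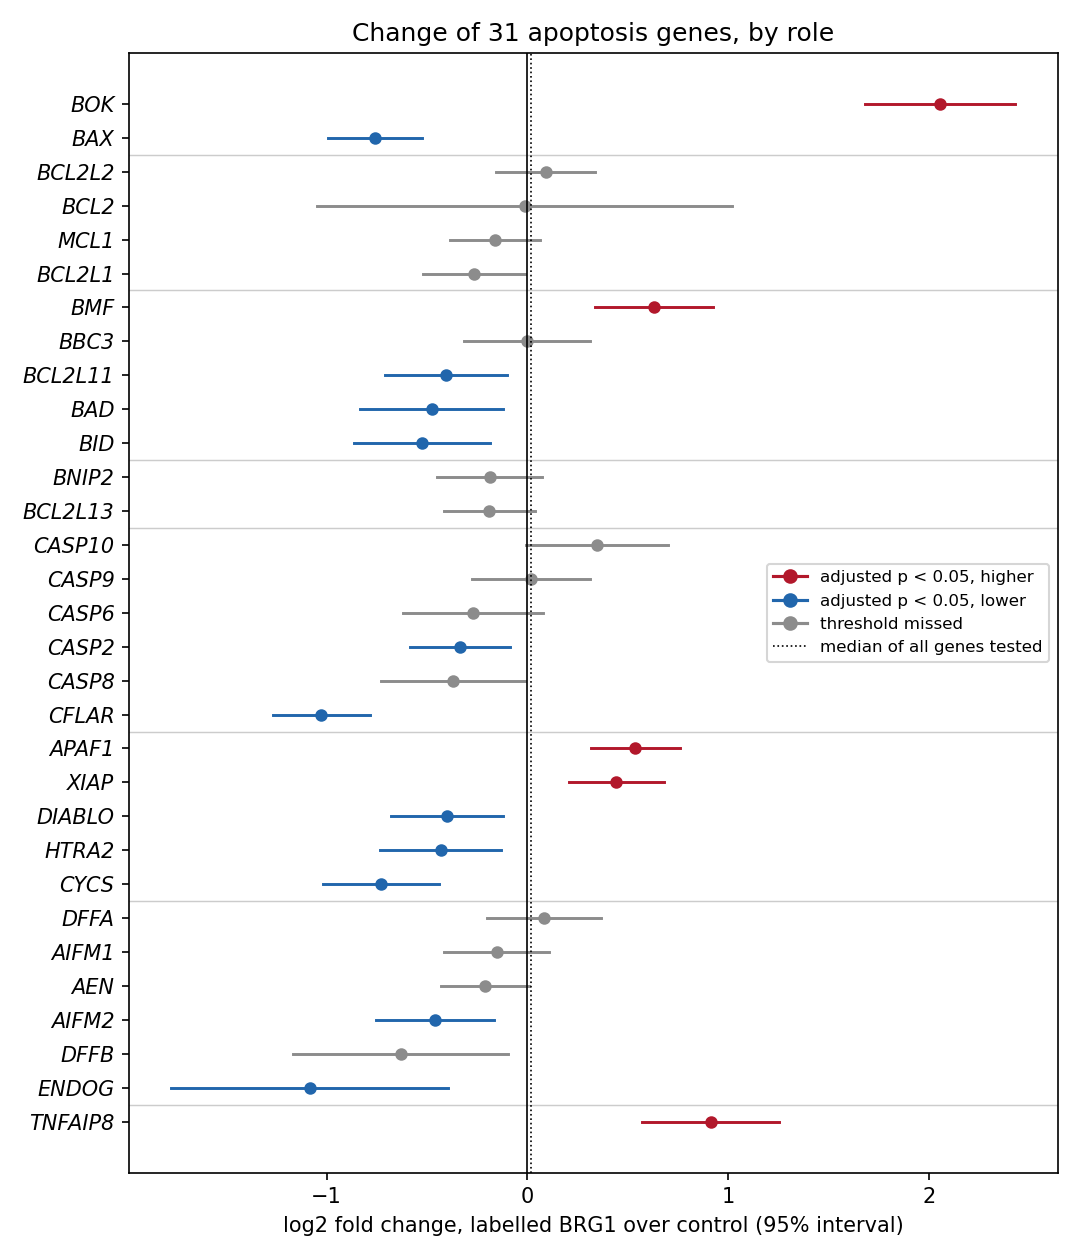
Log2 fold change of each tested gene, libraries labelled BRG1 over controls, with its 95% interval from the edgeR fit, ordered within roles; red and blue mark an adjusted p under 0.05 and the dotted line the median of all genes tested. The effectors BOK (2.06) and BAX (-0.76) lie on opposite sides, while the intervals of BCL2L2, BCL2 and MCL1 include 0.

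Because effector and guardian are counted in the same library, their ratio does not depend on library scaling. It is a ratio of reads and not of molecules, since the genes differ in length. BAX gave 0.936 and 0.889 reads per BCL2L1 read in the libraries labelled BRG1, against 1.22 and 1.35 in controls. Per MCL1 read it gave 0.0946 and 0.104 in the libraries labelled BRG1, against 0.143 and 0.158 in controls. Against BCL2 the ratio was 27.8 and 24.1 in the libraries labelled BRG1, against 59.6 and 33.6 in controls, with the control values far apart because BCL2 had 33 reads in control 1. All 3 ratios were lower in both libraries labelled BRG1 than in either control. They share the BAX reads, so they are not 3 separate observations. The exact two-sided permutation test of 2 against 2 gave p = 0.333 for each of the 3, the smallest this design allows.

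**Figure D3:**
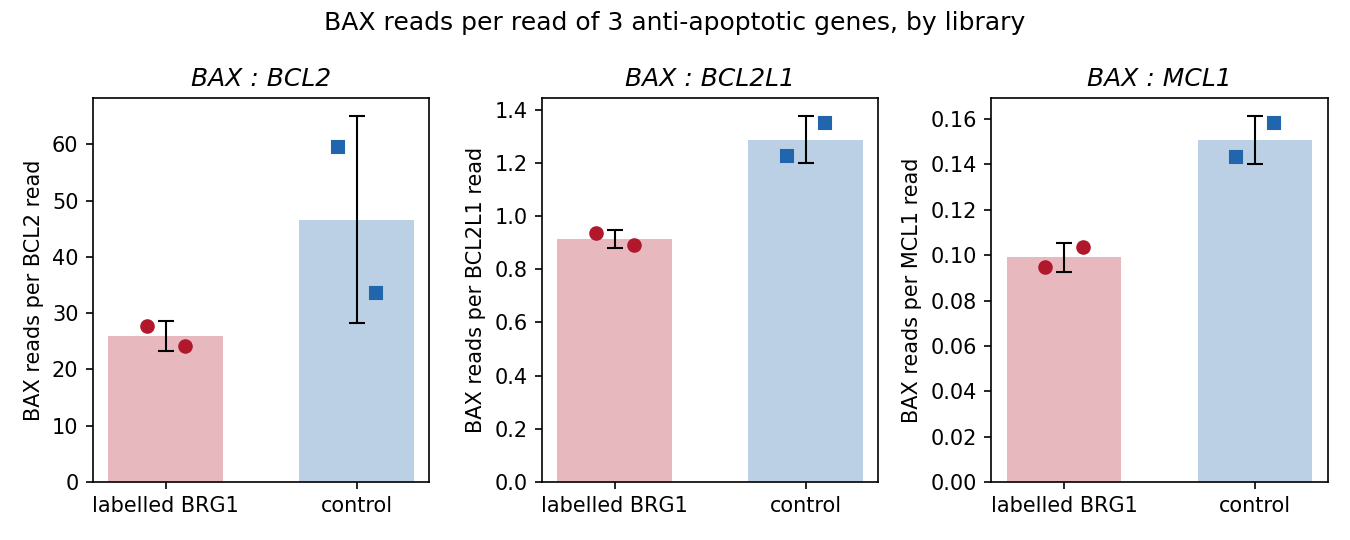
BAX reads per read of BCL2, BCL2L1 and MCL1 in each library (points), with the mean of each group as a bar and 1 SD as the error bar (n = 2). The libraries labelled BRG1 average 0.913 BAX reads per BCL2L1 read against 1.29 in controls, and 0.0991 per MCL1 read against 0.151 in controls.

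Of 5 tested BH3-only genes 1 rose and 3 fell, 80.0% against 44.6% of all genes tested. A count over 5 genes is no result about these genes as a group. BMF, which is tethered to the cytoskeleton in healthy cells, had 23.6 and 22.9 CPM in the libraries labelled BRG1, against 14.5 and 15.5 CPM in controls. The groups were well separated, and the rise was 1.55-fold (log2 fold change 0.63 ± 0.14; adjusted p = 0.0017). BID, the substrate of caspase-8, had 15.04 and 11.49 CPM in the libraries labelled BRG1, against 19.0 and 19.2 CPM in controls. Both were low, the second more so, for a fall of -0.52 ± 0.16 on the log2 scale (adjusted p = 0.0138) that missed the threshold without library 2 labelled BRG1 and with library size alone. BCL2L11, which encodes BIM, a binder of every guardian, had 14.10 and 14.99 CPM in the libraries labelled BRG1, against 18.4 and 20.1 CPM in controls.

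BCL2L11 thus fell by 0.40 on the log2 scale (adjusted p = 0.031), but it missed the threshold without either library labelled BRG1, with library size alone and in DESeq2. BAD, which is held inactive by survival kinases, averaged 20.4 ± 0.675 CPM in the libraries labelled BRG1 and 28.4 ± 7.98 CPM in controls (adjusted p = 0.031), with 34.1 CPM in control 1 and 22.8 CPM in control 2. It missed the threshold at -0.16 without control 1, and also without either library labelled BRG1, with library size alone and with the span trend removed. BBC3, for PUMA, the p53 target that engages all guardians, had 19.2 and 21.7 CPM in the libraries labelled BRG1, against 22.5 and 18.3 CPM in controls. The groups overlapped, with a 95% interval from 0.803-fold to 1.24-fold (adjusted p = 0.994).

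The death receptor branch held the largest fall of the 31 tested members after that of ENDOG. BAK1 and PMAIP1, kept out of the member counts, fell by 1.37 and 1.07 on the log2 scale. CFLAR, the inactive caspase-8 homologue FLIP that keeps caspase-8 from full activation, had 56.0 and 56.2 CPM in the libraries labelled BRG1, against 126 and 103 CPM in controls. Control 1 was the highest, both libraries labelled BRG1 were nearly equal, and the level fell to 0.491 of that in controls (log2 fold change -1.03 ± 0.11; 95% interval -1.27 to -0.78; adjusted p = 4.14e-06). CFLAR (104780744 to 104835631), CASP10 (104858082 to 104895941) and CASP8 (104923659 to 104948470) follow each other on chromosome 15. CASP8, the initiator caspase of death receptors, had 8.34 and 8.01 CPM in the libraries labelled BRG1, against 10.7 and 10.5 CPM in controls. It lay lower in both, at -0.37 ± 0.17 on the log2 scale, but missed the threshold (adjusted p = 0.0874), as did its relative CASP10 at 0.35 ± 0.17 (adjusted p = 0.103). Of the 3 neighbours CFLAR alone passed in this fit, and CASP10 also passed, as higher, with library size alone.

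CASP9, the initiator caspase of the apoptosome, had 19.0 and 21.3 CPM in the libraries labelled BRG1, against 20.2 and 19.6 CPM in controls. Its groups overlapped, and the 95% interval was 0.826-fold to 1.24-fold (adjusted p = 0.926). Of the 6 tested genes of caspases and CFLAR, 2 fell, a share of 33.3% against 23.6% of all genes tested, the second being CASP2, an initiator linked to DNA damage, at -0.33 ± 0.12 on the log2 scale (adjusted p = 0.0306). CASP2 missed the threshold without library 1 or library 2 labelled BRG1, with library size alone and with the span trend removed. CASP6, an executioner, missed the threshold at -0.27 ± 0.16, and passed as lower without control 2. In this group 0 rose in edgeR, DESeq2 or limma-voom, and 0 had an unadjusted p under 0.05 in that direction. Of all genes tested 21.0% rose in edgeR.

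The 5 members of the apoptosome group passed, 2 as higher and 3 as lower, where 44.6% of all genes tested passed. A count over 5 genes is no result about the group, and CASP9, counted with the caspases, did not pass. APAF1, the scaffold of the apoptosome, had 63.9 and 67.4 CPM in the libraries labelled BRG1, against 44.3 and 46.2 CPM in controls. The groups were far apart relative to their spread, with a rise of 1.45-fold (log2 fold change 0.54 ± 0.10; adjusted p = 0.000691). APAF1 spans 85166616 to 85258751 of chromosome 5, where it overlaps IKBIP. CYCS, cytochrome c, the ligand that opens APAF1, had 49.6 and 54.1 CPM in the libraries labelled BRG1, against 99.6 and 72.0 CPM in controls. The controls differed widely, but both lay above both libraries labelled BRG1, and the fall was -0.73 ± 0.14 on the log2 scale (adjusted p = 0.000493). CYCS moved to -0.48 without control 1 and -0.96 without control 2, and passed in both. In human CYCS has many processed pseudogenes, and reads aligned to several places were not counted.

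XIAP, which blocks caspases directly, had 48.3 and 46.9 CPM in the libraries labelled BRG1, against 35.4 and 34.6 CPM in controls. It rose by 0.44 ± 0.11 on the log2 scale (adjusted p = 0.00427), although it missed the threshold without either library labelled BRG1. Its antagonist DIABLO (SMAC) had 32.1 and 40.2 CPM in the libraries labelled BRG1, against 51.4 and 44.1 CPM in controls. Library 2 labelled BRG1 came close to control 2, and the fall was -0.40 ± 0.13 (adjusted p = 0.0218). HTRA2, a mitochondrial protease and the other antagonist, averaged 16.97 ± 0.270 CPM in the libraries labelled BRG1 and 22.9 ± 2.55 CPM in controls, a fall of -0.43 ± 0.14 (adjusted p = 0.0222). HTRA2 missed the threshold when control 1 or either library labelled BRG1 was left out, DIABLO when library 1 labelled BRG1 was, and both with library size alone.

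Of 6 mitochondrial flavoproteins and nucleases 2 fell, 33.3% against 23.6% of all genes tested. ENDOG, a mitochondrial nuclease that can enter the nucleus, had 1.73 and 1.58 CPM in the libraries labelled BRG1, against 3.71 and 3.30 CPM in controls, from 59 to 130 reads. The groups were apart, with a log2 fold change of -1.08 ± 0.32 and a wide interval of -1.77 to -0.39 (adjusted p = 0.0131). This was the largest fall of the 31 tested members, while BAK1, kept out of the member counts, fell by 1.37. ENDOG overlaps SPOUT1 on chromosome 1, and missed the threshold without library 2 labelled BRG1. AIFM2, also known as the ferroptosis suppressor FSP1, fell by 0.46 on the log2 scale (adjusted p = 0.0139), but not past the threshold without library 1 or library 2 labelled BRG1 or with library size alone.

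The relatives of these 2 genes gave values short of the threshold. AIFM1, the flavoprotein AIF, was at -0.15 ± 0.12, and AEN, an exonuclease induced by p53, at -0.21 ± 0.10, passing as lower without control 2. The caspase-activated DNase DFFB was at -0.63 ± 0.25 (adjusted p = 0.0538) and its inhibitor and chaperone DFFA at 0.08 ± 0.13. DFFB passed as lower in 5 of 13 alternatives: with no filter, in limma-voom, with the replicate block, without control 2 and without library 2 labelled BRG1. In this group 0 rose in edgeR, DESeq2 or limma-voom, and 0 had an unadjusted p under 0.05 in that direction. Of all genes tested 21.0% rose in edgeR. TNFAIP8, an NF-κB-induced gene that restrains caspase activation, had 16.6 and 17.4 CPM in the libraries labelled BRG1, against 9.91 and 8.10 CPM in controls. It rose 1.88-fold with no overlap (log2 fold change 0.91 ± 0.16; adjusted p = 0.000292), the second largest rise of the members. Its relative TNFAIP8L3 fell, at -0.73 ± 0.23 (adjusted p = 0.0192), but missed the threshold without library 1 labelled BRG1 and with library size alone.

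The rest of the pathway was described by lists chosen, like the members, with earlier results of these data known. Rises in a list are to be read against the 21.0% of all genes tested that rose, and falls against the 23.6% that fell. Shares of called genes are to be read against the 44.6% of all genes tested. They were 33.3% for other BCL2-related genes, 46.2% for VDAC and membrane genes, 6 of 10 for other caspases and targets, 33.3% for IAP proteins, 38.1% for death receptors and 40.9% for p53 and its targets. Of 12 other BCL2-related genes tested 1 rose and 3 fell; the falls numbered 1 without library 1 or library 2 labelled BRG1, and then 0 rose, 5 without control 1, 7 without control 2 and 1 with library size alone. BNIP3, a mitochondrial receptor for autophagy induced by hypoxia, had 257 and 269 CPM in the libraries labelled BRG1, against 774 and 664 CPM in controls (log2 fold change -1.45 ± 0.11; adjusted p = 1.18e-07). BAG6 and TMBIM6 fell by 0.38 and 0.35 on the log2 scale, and BCLAF1 rose by 0.30. Of 13 genes of VDAC channels and the mitochondrial membrane 6 fell, 46.2% against 23.6% of all genes tested, or 4 with library size alone. The prohibitin PHB1 fell by 0.90 and CHCHD2 by 0.91 on the log2 scale, and the outer membrane channels VDAC3 and VDAC2 by 1.03 and 0.76. In this list 0 rose by edgeR, DESeq2 or limma-voom, with 0 at an unadjusted p under 0.05. With library size alone 2 rose, and with the span trend removed 1 rose and 4 fell.

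Among 10 other caspases and caspase targets tested 4 rose and 2 fell. With library 1 labelled BRG1 left out 1 gene of this list rose, with library 2 left out 2 rose and 1 fell, and 4 fell without control 2, while 1 fell with the span trend removed. The inflammatory CASP1 fell by 1.51 ± 0.26 on the log2 scale from low counts, while CASP8AP2, which binds caspase-8, rose by 0.53 ± 0.15. Among 6 IAP proteins and antagonists tested 2 fell. BIRC3, the NF-κB target cIAP2, had 296 and 286 CPM in the libraries labelled BRG1, against 462 and 429 CPM in controls (-0.62 ± 0.10; adjusted p = 0.000212). XAF1, an interferon-induced antagonist of XIAP, had 8.44 and 9.35 CPM in the libraries labelled BRG1, against 34.3 and 29.9 CPM in controls (-1.85 ± 0.15; adjusted p = 1.35e-07). By edgeR, DESeq2 and limma-voom 0 of this list rose, and 0 did at an unadjusted p under 0.05, though 1 rose without control 2 and 2 with library size alone.

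Death receptors, ligands and adaptors fell in 8 of 21 genes tested, 38.1% against 23.6% of all genes. The receptor TNFRSF12A, for the ligand TWEAK, fell by 1.28 ± 0.12 on the log2 scale (adjusted p = 7.44e-07), PEA15, which binds FADD and caspase-8, by 1.00 ± 0.11, the TNF receptor TNFRSF1B by 0.68 ± 0.10 and DAXX by 0.69 ± 0.10. In this list edgeR, DESeq2 and limma-voom called 0 rises, and 2 genes had an unadjusted p under 0.05 as higher; without a library 0 to 2 rose, with library size alone 5, and 4 after each library's span trend was taken out. Of 22 genes of p53 and its apoptosis targets 5 rose and 4 fell, or 10 and 3 with library size alone, 9 and 6 without control 1. With library 1 labelled BRG1 left out 3 rose and 3 fell, and with library 2 left out 3 rose and 2 fell. SIVA1 fell by 1.27 ± 0.13 and the stress sensor SESN2 by 0.56 ± 0.11, while TP53INP1 and GADD45A rose by 0.62 each (SE 0.11 and 0.13).

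Upstream kinases and transcription factors had the highest share of called genes of these lists, 84.2% against 44.6% of all genes tested, with 3 of 19 higher and 13 lower. The list was chosen with earlier results of these data known, so this share is a description only. TRIB3, a stress-induced pseudokinase, had 38.1 and 41.0 CPM in the libraries labelled BRG1, against 137 and 138 CPM in controls (-1.79 ± 0.10; adjusted p = 5.48e-09). DDIT3, which encodes CHOP, a factor that induces BH3-only genes under endoplasmic reticulum stress, had 23.2 and 23.9 CPM in the libraries labelled BRG1, against 48.5 and 44.7 CPM in controls (-0.98 ± 0.12; adjusted p = 9.26e-06). NFKB1 fell by 0.94 ± 0.11 and ATF4 by 0.85 ± 0.11 on the log2 scale. The falls numbered 8 with library size alone, 5 without library 1 labelled BRG1 and 8 without library 2.

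**Figure D4:**
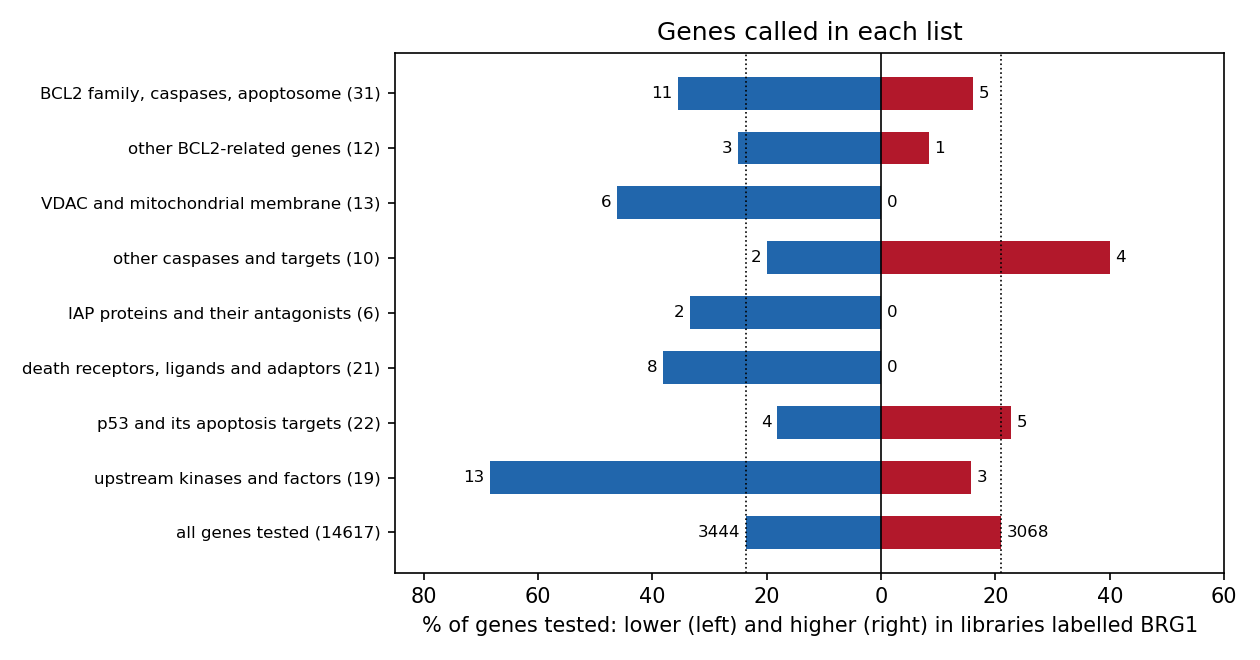
Share of the tested genes of each list that passed an adjusted p of 0.05, lower to the left and higher to the right in the libraries labelled BRG1; numbers at the bars are gene counts, numbers in brackets the genes tested, and dotted lines the shares of all genes tested. The members (11 lower, 5 higher) reach 35.5% to the left, against 23.6% of all genes, and 16.1% to the right, against 21.0%. The upstream list (13 lower, 3 higher) extends farthest to the left. Members and lists were chosen with earlier results of these data known.

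Gene span, the length of genome between a gene's ends, moved with the results. Across the 11328 tested genes with a RefSeq span the log2 fold change had a Spearman correlation of 0.29 with span, as a description across genes that share the same 4 libraries. Across the 30 members with a span it was 0.38. BAX and CYCS span 5.81 and 2.29 kb, and APAF1 and TNFAIP8 span 92.1 and 133 kb, while the members' median is 21.3 kb against 29.1 kb over all tested genes with a span. With the trend of each library with span removed, BAX was at -0.50 and CYCS at -0.35, APAF1 at 0.38 and TNFAIP8 at 0.70 on the log2 scale, and all 4 passed. ENDOG, CASP2, BAD and HTRA2 missed the threshold in that fit, while BCL2L1, BCL2L13 and BNIP2 passed as lower, for 10 falls in all.

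Across 13 alternative settings, 7 of the 16 called members passed in every setting: BOK, CFLAR, BAX, TNFAIP8, CYCS, APAF1 and BMF. All 16 kept their direction in each of the 13. Of the 15 uncalled members 9 passed in at least 1 alternative (DFFB, BCL2L1, CASP10, AEN, BCL2L13, CASP6, BNIP2, MCL1 and BCL2L2) and 6 in none. BCL2L2 has no RefSeq span, so it was tested in 12 of them. The range was 1.90 to 2.28 for BOK, -1.18 to -0.80 for CFLAR and -0.81 to -0.50 for BAX on the log2 scale.

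**Figure D5:**
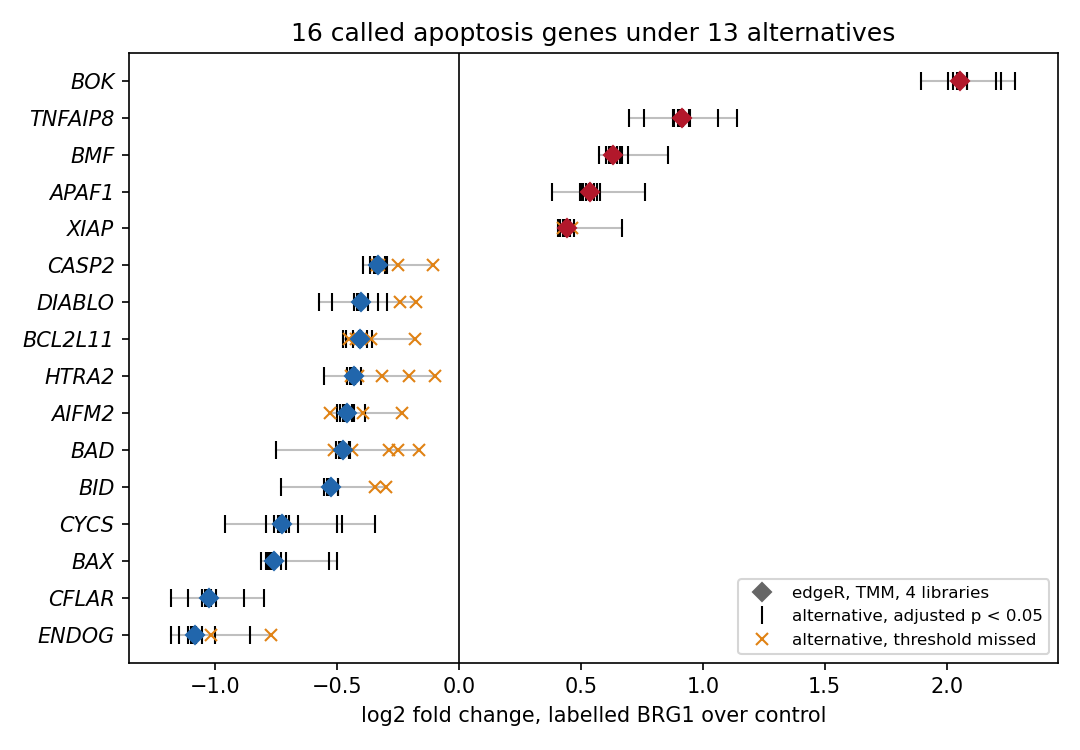
Log2 fold change of the 16 called members (diamonds) and the same value under 13 alternative scalings, filters, tests and library sets; ticks passed an adjusted p of 0.05 and orange crosses missed it. All crosses belong to 9 members, and none to BOK, TNFAIP8, BMF, APAF1, CYCS, BAX or CFLAR.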

How the data were processed

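The deposited files hold raw whole-number read counts per Ensembl gene, 1 file per library, which the authors did not normalize or pool. The tools named in the submitters' processing notes are STAR, FastQC, Cufflinks, SAMtools, edgeR and DESeq2, and the build is Sscrofa11.1; the counter, its strand setting and the annotation release are not given in the sources used here. Overlapping and antisense genes can therefore not be told apart, and the RefSeq spans of 12 of 30 members overlap another gene. Rows naming no gene, 10.2% to 13.8% of reads per library, were left out. The files name 17508 of 35670 genes, and the gene name table added 223 symbols.

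Genes were tested with edgeR 4.0.16 (R 4.3.3): filterByExpr (minimum count 10, minimum total 15), TMM scaling, and the quasi-likelihood test of group, adjusted by Benjamini-Hochberg over 14617 genes. Log2 fold changes use a prior count of 0.125, and the SE is the unshrunk log2 fold change over the root of F. The fit was tested on simulated data, where it recovered 65 of 100 changes of 2-fold and 84 of 100 of 4-fold. It made 9 false calls among 14417 unchanged genes. Only 100 genes were changed at each size there, whereas 6512 of 14617 genes were called in these data. Those rates may therefore not carry over to these data. Alternatives used DESeq2 1.42.0, limma 3.58.1, other scalings and filters, a lowess trend with gene span, and each library left out in turn, when the lone sample is assumed to vary like the other group. Members and lists were chosen with earlier results of these data known. Values per library are given for 17 core genes and for other members past the threshold by at least 1.5-fold, and up to 4 genes per list are named by smallest adjusted p; 1 gene that the rule names is not reported here. The BAX ratios to BCL2L1 and MCL1, and counts with BAK1 and PMAIP1, were added after seeing the data.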

Additional observations from a re-analysis of the deposited data

How the results depend on the processing

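The 5 rises and 11 falls among members were 7 and 4 with library size alone, 5 and 3 at an adjusted p of 0.01, and 3 and 4 when a change of at least 1.5-fold was also required. Leaving out a library gave 4 to 5 rises and 5 to 18 falls. The members' median of -0.21 was 0.017 with library size alone and ran from -0.29 to -0.16 without a library. Over all genes the 3068 rises and 3444 falls were 4820 and 2139 with library size alone, the falls were 2057 at a minimum of 1.5-fold, and leaving out a library gave 1908 to 3673 rises and 2177 to 4321 falls. With the replicate number as a block 5 members rose and 12 fell, DFFB being the added fall. The numbers are only numbers: the deviations of same-numbered libraries from their group means had a correlation of -0.01 across genes, so the libraries were not treated as pairs. SMARCA4 was at 0.18 with library size alone, and its values without a library ran from -0.15 to 0.048; without control 1 it passed as lower (adjusted p = 0.0251). The log2 ratio of BAX to BCL2 reads, -0.79, ran from -1.20 to -0.38 without a library and was -0.29 with the span trend removed.

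No called member changed direction. Among uncalled members the sign changed as follows. With library size alone BBC3 was at 0.22, BCL2 at 0.21, BCL2L13 at 0.036, MCL1 at 0.067, BNIP2 at 0.039, AIFM1 at 0.074 and AEN at 0.017. With at least 50 reads required in 2 libraries BBC3 was at 0.028 and BCL2 at 0.015, and with the replicate block BBC3 was at 0.0026 and BCL2 at 0.023. With the span trend removed BBC3 was at 0.21 and MCL1 at 0.12, limma-voom gave BCL2 at 0.041, and with no filter CASP9 was at -0.012. Without a library BBC3 ran from -0.16 to 0.15, BCL2 from -0.37 to 0.42, CASP9 from -0.070 to 0.10 and DFFA from -0.0076 to 0.15. The cause of these changes was not tested, apart from library size alone, which moves all genes up by 0.23.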

Other observations

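Genes of other forms of regulated cell death were measured in the same libraries. The necroptosis kinases RIPK1 and RIPK3 and their substrate MLKL, which punctures the plasma membrane, gave log2 fold changes whose 95% intervals were -0.23 to 0.24, -0.34 to 0.25 and -0.26 to 0.25 (adjusted p = 0.971, 0.815 and 0.993; edgeR). MLKL had 32.3 and 31.4 CPM in the libraries labelled BRG1, against 30.8 and 33.0 CPM in controls. The gasdermins, pore formers of pyroptosis, gave different values: GSDME had 18.1 and 19.2 CPM in the libraries labelled BRG1, against 11.0 and 10.8 CPM in controls, and rose (0.77 ± 0.15; adjusted p = 0.000544). GSDMD, the substrate of CASP1, missed the threshold at -0.20 ± 0.12 (adjusted p = 0.205), while CASP1 itself had 2.86 and 2.99 CPM in the libraries labelled BRG1, against 10.3 and 6.32 CPM in controls. Except for GSDME and CASP1, which the rule for named genes gives, these genes were chosen after their values were seen, and the difference between GSDME and GSDMD was not tested.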
